A study of Mus musculus with 20 samples.

Results

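6 genes known for null, duplicated or strain-restricted alleles among the founder strains of UM-HET3 mice were followed through the series: Nnt, Hc, Gpnmb, H2-Ea, Glo1 and Wdfy1. They were chosen by name, each symbol was matched to its Ensembl identifier, and all 6 were found among the 57010 genes counted. UM-HET3 mice are the offspring of a cross of the 4 strains BALB/cByJ, C57BL/6J, C3H/HeJ and DBA/2J, so that littermates differ in which founder alleles they carry, and the genotype of each mouse at these genes was not part of the labels. All mice were 12-month-old males, and their livers and kidneys were sampled after the 7c cocktail (repsox, tranylcypromine, DZNep, CHIR99021, forskolin and TTNPB at 0.1 mg/kg/day each and valproate at 1 mg/kg/day) or after its vehicle of 50% DMSO and 50% PEG300. Both were delivered for 28 days from osmotic minipumps under the skin. There were 6 livers and 6 kidneys after 7c and 4 livers and 4 kidneys after vehicle, 20 mRNA libraries in all.

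The genes have unrelated roles. Nnt is a mitochondrial inner membrane enzyme that makes NADPH, and C57BL/6J carries an internal deletion in it. Hc encodes complement C5, made mainly by hepatocytes, and DBA/2J carries a null allele. Gpnmb is a glycoprotein of macrophages and lysosomes for which DBA/2J carries a premature stop. H2-Ea is the alpha chain of the class II molecule I-E, and the C57BL/6 haplotype lacks its promoter. Glo1 is glyoxalase 1, which detoxifies methylglyoxal, and lies in a segment that is duplicated in some inbred strains. Wdfy1 is an endosomal adaptor of the Toll-like receptors TLR3 and TLR4 whose expression differs among strains. The reference genome used for alignment is that of C57BL/6J.

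Total counts were 28383359 to 34153084 in the livers and 27855849 to 64872451 in the kidneys. The tissue labels matched their markers: the summed level of 4 liver markers was 62100 to 94500 CPM (counts scaled to a common library size) in the livers and 79.1 to 326 CPM in the kidneys, and the 5 kidney markers summed to at most 0.505 CPM in the livers. One 7c liver held skeletal muscle transcripts (437 CPM over 3 markers), and 3 fat cell markers summed to 5.58 to 33.8 CPM in 7c kidneys and 0.557 to 7.12 CPM in vehicle kidneys. Their part in the 7c comparisons was not tested. 2 kidneys stood apart over all genes: by Dixon's gap ratio within its group, the kidney of vehicle replicate 2 was the outlying library in 7.58% of 17749 genes (0.682 to 0.727% for the other vehicle kidneys), and that of 7c replicate 5 in 3.99% (0.338 to 1.18% for the other 7c kidneys). The livers ranged from 0.4 to 2.03%. CPM values below were scaled by the TMM method within a tissue, and mean values are given with their SD. Liver and kidney libraries of one treatment carry the same replicate numbers, but the labels do not state that a number marks one mouse.

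Glo1 had the same 3 replicate numbers highest in liver and in kidney. The gene lies on the minus strand of chromosome 17, from 30803910 to 30845845 (GRCm39). Glo1-ps, a processed pseudogene on chromosome 2 (35230421 to 35230975), repeats its coding sequence with 549 of 552 aligned bases identical and with 1 identical run of 327 bases, so that reads can fit both places. The start of the coding sequence in exon 1 of Glo1 (chr17:30831466-30831525, minus strand) and the same stretch of the pseudogene (chr2:35230421-35230480, plus strand) are shown because they hold 1 of the 3 differing bases, in capitals.
Glo1: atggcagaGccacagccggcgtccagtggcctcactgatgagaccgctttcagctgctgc
Glo1-ps: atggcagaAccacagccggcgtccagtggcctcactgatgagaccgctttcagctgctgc

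In the 7c livers, replicates 1 to 6 had 1101, 545.5, 651.3, 1064, 580.6 and 628.1 CPM of Glo1. In the vehicle livers, replicates 1 to 4 had 675.8, 1076, 749.6 and 700.4 CPM. 3 libraries, 7c replicates 1 and 4 and vehicle replicate 2, were thus above 1060 CPM and the other 7 were at or below 750 CPM. In the 7c kidneys, the values were 258.3, 149.3, 126.6, 256.7, 194.5 and 123 CPM, and in the vehicle kidneys 134, 327, 125.8 and 127.5 CPM. The same 3 replicate numbers were the highest in the kidney, and the highest library exceeded the lowest 2.02-fold in liver and 2.66-fold in kidney. The 7c and vehicle groups overlapped in both tissues. The kidney of vehicle replicate 2 is a library that stood apart over many genes (7.58%), and the part of this in its high Glo1 was not tested. The liver of that number, at 1.13% of genes, did not stand apart.

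**Figure D1:**
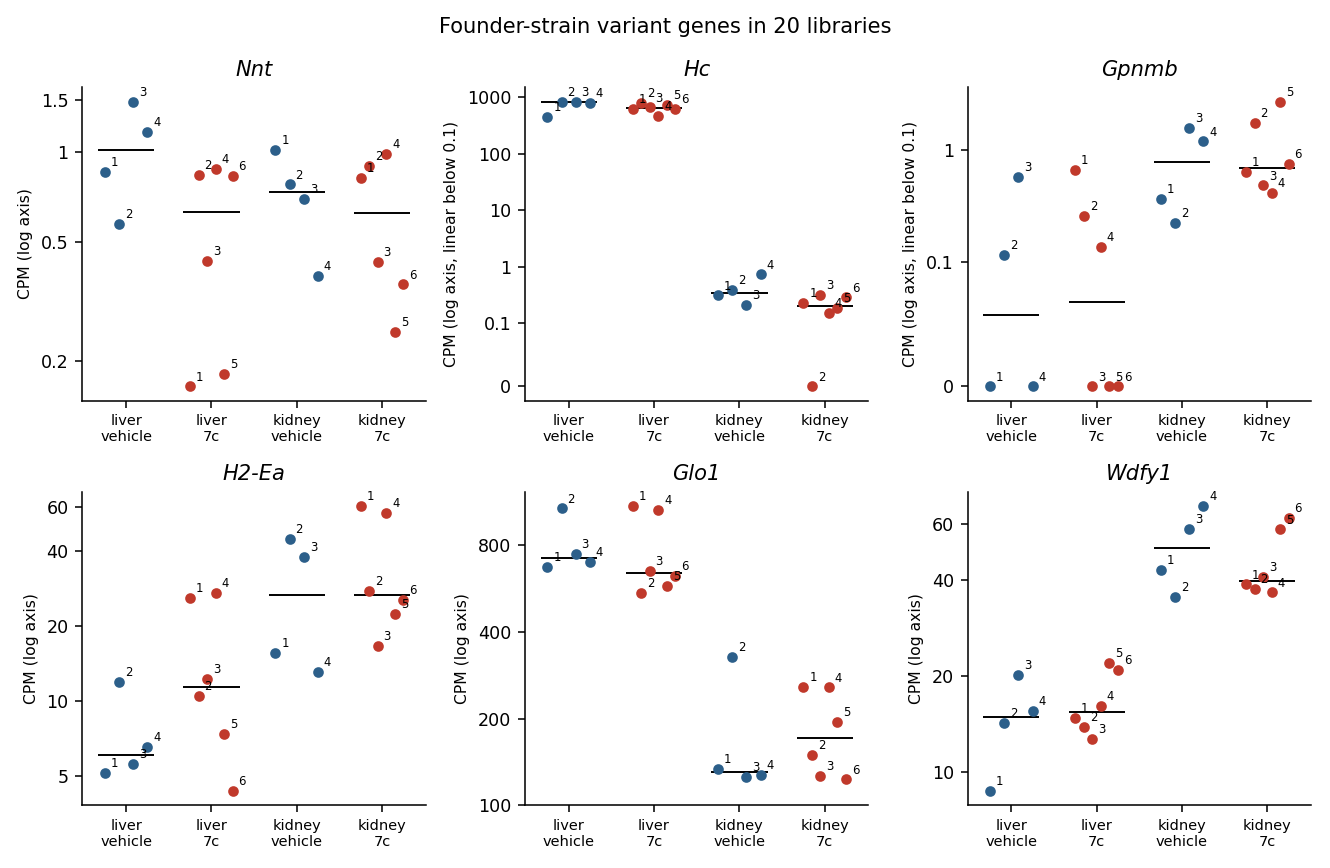
CPM (TMM within tissue, log axis; linear below 0.1 for Hc and Gpnmb) of each member in the 20 libraries by tissue and treatment, with replicate numbers beside the points, vehicle in blue, 7c in red and bars at the group medians. Glo1 had 7c replicates 1 and 4 and vehicle replicate 2 above the rest in both tissues, and Gpnmb was at 0 in 5 livers.

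Whether libraries of one treatment and number deviated together was tested for every gene that passed the filter in both tissues, with a joint edgeR quasi-likelihood F test of the number terms in a model that also held tissue, treatment and their interaction. Of 14163 genes, 80 had an adjusted p under 0.05 (0.565%), and none of the 5 members tested did. Glo1 came nearest (F = 7.95, adjusted p = 0.0815), followed by H2-Ea (F = 7.16, adjusted p = 0.118) and Wdfy1 (F = 5, adjusted p = 0.334). These 3 members ranked 97, 116 and 214 of 14163 by F, and all 3 had an unadjusted p under 0.05, as did 742 of all genes. Nnt (F = 1.16) and Hc (F = 0.728) each had an adjusted p of 0.98. Over all alternatives run, the adjusted p ran from 3.01e-08 to 0.262 for Glo1, from 8.27e-07 to 0.36 for H2-Ea and from 0.00404 to 0.636 for Wdfy1. Without vehicle replicate 2, whose kidney stood apart, the edgeR adjusted p was 0.127, 0.224 and 0.164, and without 7c replicate 5 it was 0.0377, 0.175 and 0.479. The count depended on the settings, which also moved the count over all genes: Glo1 and H2-Ea were called by limma-voom (170 genes) and by edgeR with no filter (260 genes), and Wdfy1 as well by DESeq2 (429 genes) and edgeR's likelihood ratio test (458 genes).

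Glo1 was on the same side of its group mean in liver and kidney for 9 of 10 replicate numbers, Wdfy1 for 9, H2-Ea for 8, Hc for 6 and Nnt for 5, beside a median of 5 over all genes tested. On the scaled product of liver and kidney deviations, Glo1 stood at percentile 98.63 of all genes, Wdfy1 at 94.82 and H2-Ea at 94.74, while Nnt was at 64.9 and Hc at 31.33.

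**Figure D2:**
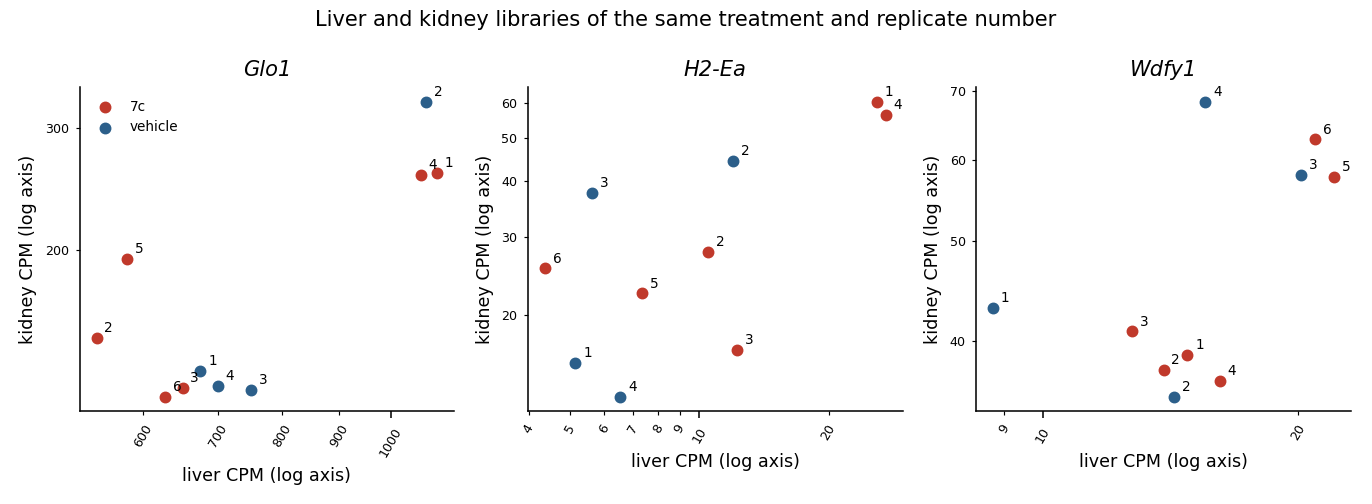
Liver CPM (x, log axis) against kidney CPM (y, log axis) of Glo1, H2-Ea and Wdfy1 for the 10 replicate numbers, 7c in red and vehicle in blue. Glo1 placed 7c replicates 1 and 4 and vehicle replicate 2 at the upper right, and H2-Ea placed 7c replicates 1 and 4 there.

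The genes most like Glo1 were ranked by the mean of Pearson's r in liver and in kidney, over 10 libraries per tissue with group means removed. These correlations share their libraries and are given as a description. The pseudogene Glo1-ps came first (r = 0.94 in liver and 0.84 in kidney), followed by the retinal reductase gene Dhrs3 on chromosome 4 (0.86 and 0.90) and by the long non-coding RNA Gm10503 (0.89 and 0.86). Glo1-ps had 7.59 to 24.7 CPM in liver and 2.22 to 6.99 CPM in kidney and passed the number test (adjusted p = 0.00268, edgeR). It was picked for its likeness to Glo1 in both tissues of these libraries, so this pass is no separate evidence. Whether its reads came from the pseudogene or from Glo1 transcripts was not tested, and how reads with several placements were handled is not given in the sources used here.

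Gm10503, at 31139312 to 31182301 on chromosome 17, lies 336 kb from the Glo1 start. Its values in the 7c livers were 7.87, 3.28, 2.99, 9.62, 2.02 and 3.43 CPM, and in the vehicle livers 3.73, 8.25, 2.93 and 1.78 CPM. In the 7c kidneys they were 15.6, 4.17, 3.53, 12.5, 3.63 and 5.28 CPM, and in the vehicle kidneys 4.81, 15.9, 5.48 and 3.21 CPM. The 3 replicate numbers with the highest Glo1 held the highest values in both tissues, with no overlap with the other 7, which restates its choice for likeness to Glo1 and is no separate evidence. Over all 14163 genes its number test gave F = 23.7 (adjusted p = 0.00115, edgeR), which for the same reason is no separate evidence. In an alternative added after seeing the data, leaving out vehicle replicate 2 gave r = 0.86 in liver and 0.77 in kidney with Glo1.

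Among the 19 tested genes within 1 Mb of Glo1, 4 reached a mean r of 0.7: Gm10503 (0.87), the non-coding RNA Gm50240 just downstream of Glo1 (0.83), the axonemal dynein gene Dnah8 (0.75) and Ndufv3, a complex I subunit (0.74), which was named after its value was seen. Gm50240 had 9.87, 10.1 and 11.6 CPM in the kidneys of 7c replicates 1 and 4 and vehicle replicate 2, against 3.75 to 6.1 CPM in the other 7 kidneys. In liver, the 2.98 CPM of vehicle replicate 2 lay below the 3.18 CPM of vehicle replicate 3. Dnah8 begins within the annotated span of Glo1 on the opposite strand, and the strand setting of the counting was not stated, so their reads may not be separable. Without vehicle replicate 2, r in kidney fell from 0.59 to 0.23 for Dnah8 and from 0.79 to 0.55 for Ndufv3, and was 0.95 for Gm50240. Btbd9, the next tested protein-coding gene on the other side, did not share the pattern (r = 0.04 and 0.22).

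H2-Ea shared replicate numbers with Glo1. It lies 3.72 Mb from it on chromosome 17 (34560926 to 34563618, minus strand), and its annotated transcript is marked as loss of function in GENCODE. Class II promoters carry a Y box, here searched as CTGATTGG on both strands. RefSeq promoters (GRCm38.p6) of the partner chain H2-Eb1 (chr17:34305617-34305916, plus strand) and of H2-Aa (chr17:34287774-34288073, minus strand) hold it 62 and 51 bases before the gene start, whereas a window of the same length around the annotated H2-Ea start (GRCm39, chr17:34563569-34563868, minus strand) does not hold these letters. Of 32851 promoters, 4.1% hold them. The 3 windows are shown to let the motif, in capitals, be compared.
H2-Eb1: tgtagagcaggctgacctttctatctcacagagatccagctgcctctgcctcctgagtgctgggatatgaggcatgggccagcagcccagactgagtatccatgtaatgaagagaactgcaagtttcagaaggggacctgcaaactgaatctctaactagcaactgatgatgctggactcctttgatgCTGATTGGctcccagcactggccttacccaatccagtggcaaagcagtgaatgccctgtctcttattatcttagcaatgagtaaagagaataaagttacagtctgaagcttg
H2-Aa: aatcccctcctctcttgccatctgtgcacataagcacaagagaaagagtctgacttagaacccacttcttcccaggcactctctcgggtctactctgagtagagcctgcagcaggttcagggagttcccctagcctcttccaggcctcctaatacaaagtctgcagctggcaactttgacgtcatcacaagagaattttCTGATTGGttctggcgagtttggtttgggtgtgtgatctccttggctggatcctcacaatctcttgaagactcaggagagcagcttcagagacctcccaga
H2-Ea: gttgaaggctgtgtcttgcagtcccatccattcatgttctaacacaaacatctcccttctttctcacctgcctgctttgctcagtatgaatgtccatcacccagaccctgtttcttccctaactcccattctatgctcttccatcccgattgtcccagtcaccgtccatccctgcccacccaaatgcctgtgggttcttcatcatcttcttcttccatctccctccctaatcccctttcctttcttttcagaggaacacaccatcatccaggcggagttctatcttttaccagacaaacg

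H2-Ea was detected in every library, with 121 to 3986 counts. The 7c livers had 25.9, 10.5, 12.3, 27.2, 7.37 and 4.37 CPM, and the vehicle livers 5.15, 12, 5.63 and 6.55 CPM. The 7c kidneys had 60.4, 27.7, 16.7, 56.5, 22.3 and 25.4 CPM, and the vehicle kidneys 15.6, 44.5, 37.7 and 13.1 CPM. In both tissues 7c replicates 1 and 4 were highest, vehicle replicate 2 was the highest of the vehicle group, and the treatment groups overlapped. The highest library exceeded the lowest 6.22-fold in liver and 4.62-fold in kidney. No library was at or near 0, but genotypes were not part of the labels, so this does not tell which H2-Ea alleles the mice carried.

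Reads of H2-Ea per read of H2-Eb1, the beta chain that pairs with it, ranged 3.07-fold in liver, from 0.306 to 0.939 with a median of 0.525, and 4.51-fold in kidney, from 0.145 to 0.655 with a median of 0.33. The 3 highest ratios in liver were those of vehicle replicate 2 (0.939), 7c replicate 1 (0.906) and 7c replicate 4 (0.799). In kidney, 7c replicates 1 (0.655) and 4 (0.587) came first, followed by vehicle replicates 3 (0.409) and 2 (0.401). H2-Eb1 itself gave no call in the number test (adjusted p = 0.98) and had 8.27 to 37.1 CPM in liver and 61.6 to 154 CPM in kidney.

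**Figure D3:**
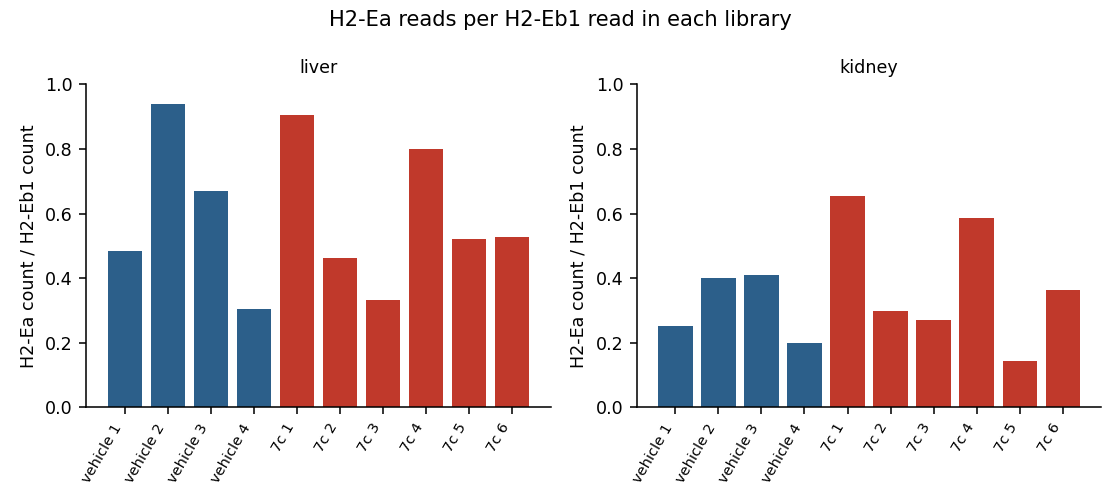
H2-Ea counts divided by H2-Eb1 counts in each library, livers left and kidneys right, vehicle in blue and 7c in red. 7c replicate 1 was at 0.906 in liver and 0.655 in kidney, 7c replicate 4 was at 0.799 and 0.587, and vehicle replicate 2 was the highest liver at 0.939.

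The gene most like H2-Ea was Gm10503 (r = 0.76 in liver and 0.90 in kidney), followed by Glo1 (0.85 and 0.74) and by Ermardl2 (0.70 and 0.84), which lies 19.4 Mb away on the same chromosome. Ermardl2 passed the number test (adjusted p = 0.0254, edgeR), but it was picked for its likeness to H2-Ea, so this is no separate evidence. Of the 20 genes most like H2-Ea, 9 lay within 10 Mb of it, as did 2.36% of all genes tested. For Glo1 the count was 7 of 20, beside 2.6%. For Nnt, Hc, Gpnmb and Wdfy1 it was 0 of 20, beside 0.275%, 1.53%, 0.907% and 0.727% of all genes, shares at which 0 of 20 is no contrast. Within 1 Mb of H2-Ea, 3 of 94 tested genes reached a mean r of 0.7, namely H2-Aa (0.75), H2-DMb2 (0.73), which helps to load class II molecules, and the class I gene H2-Q2 (0.71). Class I and class II genes of this region have near-identical copies, and reads between them are uncertain. Of the next protein-coding genes on each side, H2-Eb1 had r = 0.74 in liver and 0.49 in kidney, and the receptor gene Notch4 had 0.07 and 0.12.

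**Figure D4:**
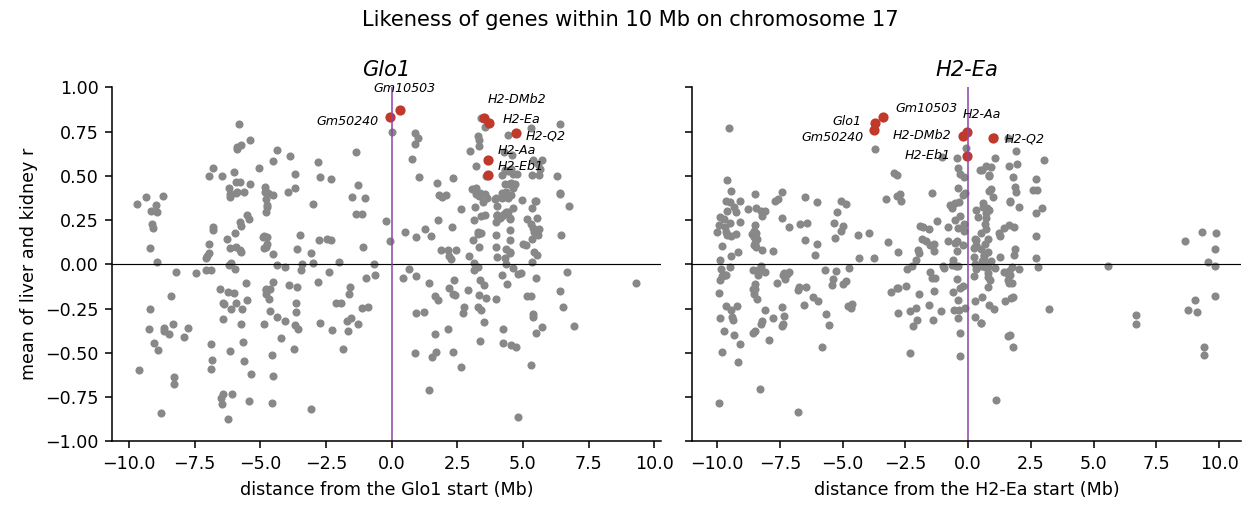
Mean of the liver and kidney correlation (y) of each tested gene within 10 Mb of Glo1 (left) and of H2-Ea (right) against its distance from the member's start in Mb (x), with named genes in red. Gm10503 (0.87) and Gm50240 (0.83) lay within 1 Mb of Glo1, and other genes of the window spread down to -0.87 for Glo1 and -0.83 for H2-Ea.

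H2-Ea is made by B cells, dendritic cells and some macrophages, and in whole tissue more of these cells cannot be told from more RNA per cell. The summed level of 5 B cell markers was 1.95 to 6.06 CPM in 7c livers, 0.561 to 3.78 in vehicle livers, 2.59 to 8.29 in 7c kidneys and 3.98 to 7.02 in vehicle kidneys. The 4 dendritic cell markers summed to 4.35 to 7.22 CPM in liver and 7.88 to 15.6 in kidney, and the 5 macrophage markers to 55.3 to 155 CPM in liver and 84.1 to 126 in kidney. No marker of the 3 lists was at 0 in every library of a group. Their correlation with H2-Ea within groups ran from -0.4 (dendritic, kidney) to 0.5 (macrophage, liver) over 10 libraries, and their part in the differences was not tested.

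Wdfy1, on the minus strand of chromosome 1 (79679017 to 79753860), ordered the replicate numbers in another way. The 7c kidneys had 38.8, 37.6, 40.9, 36.6, 57.7 and 62.8 CPM, and the vehicle kidneys 43.1, 35.4, 58 and 68.3 CPM. 7c replicates 5 and 6 and vehicle replicates 3 and 4 were thus at or above 57.7 CPM and the other 6 kidneys at or below 43.1 CPM. This gap of 1.34-fold, the widest after sorting, made up 44.5% of the whole range on the log scale. Over the members and tissues sorted in this way, the widest gap made up 19.9 to 49.9% of the range. The 7c livers had 14.8, 13.9, 12.8, 16.2, 22.1 and 20.9 CPM, and the vehicle livers 8.74, 14.3, 20.2 and 15.6 CPM. 7c replicates 5 and 6 and vehicle replicate 3 were again the highest, whereas vehicle replicate 4 fell among the other livers. The widest gap in liver, 1.46-fold and 40.9% of the range, set vehicle replicate 1 alone below the other livers.

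None of the 20 genes most like Wdfy1 lay within 10 Mb of it. The 3 closest were Dock2, a guanine nucleotide exchange factor of leukocytes (r = 0.80 and 0.84), Ccdc142os (0.78 and 0.82) and the nuclear protein gene Csrnp1 (0.76 and 0.84), on chromosomes 11, 6 and 9. Mrpl44, a mitochondrial ribosomal protein gene whose start overlaps that of Wdfy1 on the opposite strand, went the other way (r = -0.51 and -0.44), and Ap1s3 on the other side had r = -0.10 and 0.39. Ticam1, the adaptor TRIF of the same receptors, had 13.5 CPM on average in liver and 30.9 CPM in kidney. Glo1 and Wdfy1 were correlated at -0.04 in liver and -0.61 in kidney.

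Nnt, on the minus strand of chromosome 13 (119470859 to 119566380), was counted at 5 to 54 reads per library. The 7c livers had 5, 26, 13, 26, 5 and 23 counts and the vehicle livers 26, 20, 52 and 40. The 7c kidneys had 54, 30, 16, 38, 8 and 15 counts and the vehicle kidneys 39, 28, 26 and 11. In CPM this was 0.164 to 1.48 in liver and 0.25 to 1.02 in kidney, with 1 replicate number (7c replicate 4) among the 3 highest of both tissues and 2 among the 4 highest. The next gene, Paip1, which overlaps Nnt on the opposite strand, had 1078 to 3544 counts. Idh2, another mitochondrial source of NADPH, had 2661 to 33020 counts, with 85.6 to 147 CPM in liver and 460 to 515 CPM in kidney. How reads that overlap 2 genes were handled is not given in the sources used here, the reason for the low Nnt counts was not tested, and whether these counts measure the level of Nnt RNA cannot be told from them. The genes most like Nnt were Zfp598, Dda1 and P4ha2 (mean r of 0.77, 0.75 and 0.70), all on other chromosomes.

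Hc, on the minus strand of chromosome 2 (34873343 to 34951453), was a liver gene. The null allele of DBA/2J is known to lack 2 bases of an exon of 83 bases, exon 6 of 41 in the annotation (chr2:34933200-34933282, minus strand, GRCm39), shown here as in the reference with those bases in capitals.
Hc exon 6: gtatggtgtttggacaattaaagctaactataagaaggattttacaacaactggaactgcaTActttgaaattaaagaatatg

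With those 2 bases removed, the reading frame met a stop after 216 of 1680 codons. The 7c livers had 620.5, 774.6, 655.2, 469.9, 712.9 and 611.5 CPM of Hc, and the vehicle livers 451.8, 831.4, 822.1 and 784.9 CPM. Vehicle replicate 1 and 7c replicate 4 were lowest, 1.3-fold below the next library, and the whole range was 1.84-fold. No liver was near 0, but genotypes were not part of the labels, so this does not tell which Hc alleles the mice carried. In kidney, Hc had 0 to 21 counts (0.214 to 0.733 CPM in vehicle and 0 to 0.321 CPM in 7c), with 0 counts in 7c replicate 2, and 6 of 10 replicate numbers were on the same side of their group mean in both tissues. Papln, Srgap3 and Rfc1 were most like Hc (mean r of 0.80, 0.80 and 0.79), on other chromosomes. The liver-expressed neighbour AI182371 had 489 to 576 CPM in liver and r = -0.16 with Hc there. In kidney, where AI182371 had 0.18 to 1.5 CPM, its r with Hc was 0.66. Traf1 on the other side had r = -0.08 in liver and 0.38 in kidney.

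Gpnmb, on the plus strand of chromosome 6 (49013426 to 49047863), was low in both tissues. The premature stop of DBA/2J is known at codon 150, which reads cga in the reference and lies in exon 4 of 11 (chr6:49022295-49022345, plus strand, GRCm39), shown with the codon in capitals.
Gpnmb codon 150: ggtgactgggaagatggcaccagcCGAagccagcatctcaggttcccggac

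The 7c livers had 20, 8, 0, 4, 0 and 0 counts and the vehicle livers 0, 4, 20 and 0, and Gpnmb did not pass the filter there. A count of 0 allows up to 3 counts. The 7c kidneys had 42, 58, 18, 16, 86 and 31 counts (0.636, 1.74, 0.481, 0.414, 2.69 and 0.745 CPM) and the vehicle kidneys 14, 8, 58 and 34 (0.366, 0.223, 1.55 and 1.19 CPM). 7c replicates 5 and 2 and vehicle replicates 3 and 4 were highest in kidney. Cd68, a general macrophage gene, ranged 2.11-fold over the kidneys while Gpnmb ranged 12.1-fold, and Gpnmb reads per Cd68 read ran from 0.0471 to 0.344. The genes most like Gpnmb in kidney were Arhgef18, Nol9 and Rcan1 (r of 0.96, 0.91 and 0.91), none of them on chromosome 6. Its neighbours Aoc1 and Malsu1 had r = 0.40 and 0.003.

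The spread between libraries of one treatment was measured as the SD of log2 CPM around the group means and ranked among all genes tested, of which 5% lie in the top 5% by construction. In liver, the SD was 0.87 for H2-Ea, 0.83 for Nnt, 0.40 for Glo1, 0.40 for Wdfy1 and 0.33 for Hc, beside a median of 0.30 over 15012 genes, and 0 of 5 members were in the top 5%. In kidney, it was 1.10 for Gpnmb, 0.92 for Hc, 0.80 for H2-Ea, 0.67 for Nnt, 0.56 for Glo1 and 0.37 for Wdfy1, beside a median of 0.35 over 17749 genes. Only Gpnmb was in the top 5% there, at the 95th percentile itself, and it left that range with another prior count, with RLE scaling or without the filter.

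The SD falls as expression rises, so each gene was also compared with genes of like expression. Adjusted in this way, H2-Ea was at percentile 98.3 in liver and 99.4 in kidney and Glo1 at 96.5 and 97.7, so that both were in the top 5% in both tissues. This standing was not particular to them: in liver, the class II genes H2-Eb1 (98.6), H2-Aa (98.5), H2-Ab1 (98.5) and Cd74 (98.9) and the macrophage genes Clec4f (98.8), Csf1r (98) and C1qa (97.9) were as high, and in kidney H2-Eb1 was at 94.1, H2-Aa at 81.6 and Cd74 at 96.1. Hc was at 93.6 in liver and 42.5 in kidney, Wdfy1 at 91 and 88.3, Nnt at 51.3 and 47.5, and Gpnmb at 89.8 in kidney.

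**Figure D5:**
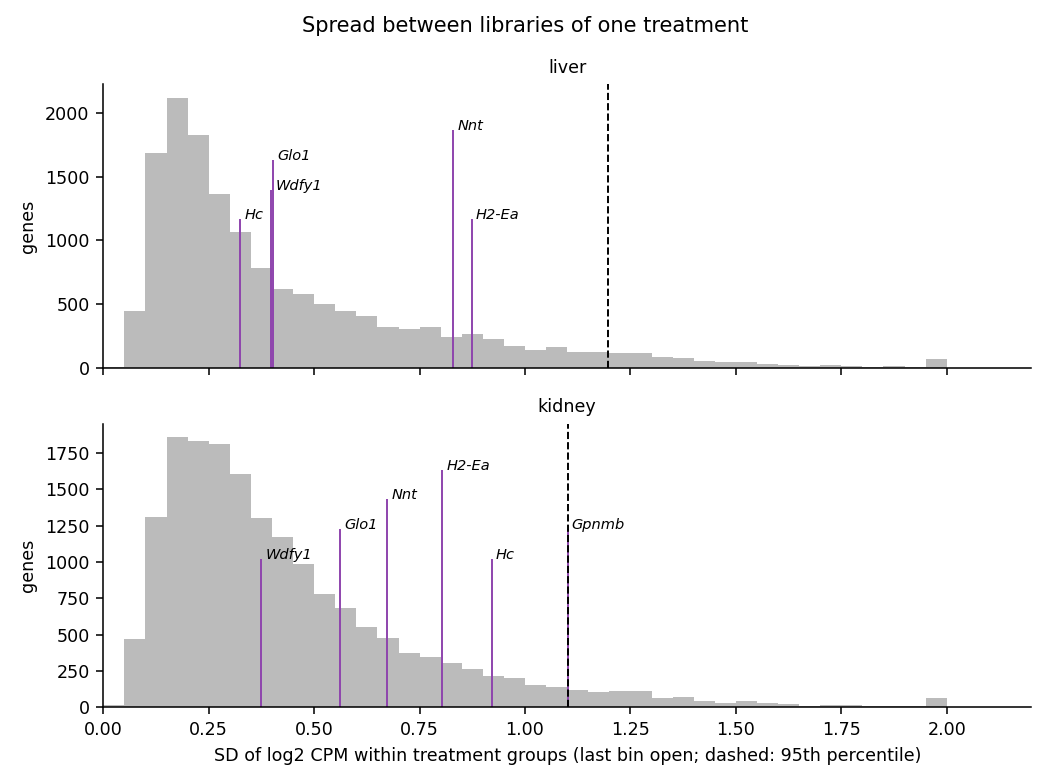
Number of genes (y) by SD of log2 CPM within treatment groups (x, bins of 0.05, the last one open) in liver (top) and kidney (bottom), with the members as purple lines and the 95th percentile of all tested genes dashed. Gpnmb lies on the dashed line in kidney, and Wdfy1 lies near the median of 0.35.

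7c against vehicle gave no call among the members. In liver, 0 of 5 members tested had an edgeR adjusted p under 0.05, where 1 of 15012 genes did (0.00666%) and 565 had an unadjusted p under 0.05, and 1 of 5 had an unadjusted p under 0.05. That member was H2-Ea, with 14.6 ± 9.64 CPM after 7c (SD, 6 livers) and 7.33 ± 3.16 CPM after vehicle (4 livers), a log2 difference of 0.99 (SE 0.46, adjusted p = 1, edgeR). H2-Eb1 had a log2 difference of 0.86 (SE 0.37, adjusted p = 1), and the median over the 10 tested genes of the class II list was 0.58, with 0 called, beside 0.002 over all genes. In the same comparison the median was 0.54 over 4 tested B cell markers, -0.29 over 2 dendritic cell markers and -0.11 over 5 macrophage markers, with 0 called, and the part of these cells in the difference was not tested. The remaining liver differences were -0.88 for Nnt (SE 0.55), -0.17 for Hc (SE 0.17), -0.07 for Glo1 (SE 0.22) and 0.19 for Wdfy1 (SE 0.22). Over the alternatives, Glo1 in liver ran from -0.21 to 0.11, and the other 4 kept their sign.

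In kidney, 0 of 6 members were called and 0 of 6 had an unadjusted p under 0.05, where 0 of 17749 genes were called (0%) and 463 had an unadjusted p under 0.05. The log2 differences were -1.03 for Hc (SE 0.65), 0.42 for Gpnmb (SE 0.65), 0.33 for H2-Ea (SE 0.43), -0.21 for Nnt (SE 0.45), -0.16 for Wdfy1 (SE 0.21) and 0.05 for Glo1 (SE 0.31), each with an edgeR adjusted p of 0.997. Over the alternatives run in kidney, the sign did not hold for Gpnmb (-0.05 to 0.92), Nnt (-0.41 to 0.11), Glo1 (-0.09 to 0.52, the highest without vehicle replicate 2) or Wdfy1 (-0.37 to 0.008), while Hc ran from -1.32 to -0.61 and H2-Ea from 0.10 to 0.67. Treatment effects that differed between liver and kidney were tested as an interaction, with 0 of 5 members called and 0 of 5 at an unadjusted p under 0.05 (1 of 14163 genes called, 0.00706%). DESeq2, limma-voom and edgeR's likelihood ratio test also called 0 members in all 3 comparisons.

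Liver and kidney were compared on 1 scale over the 20 libraries, on which the median log2 difference of all genes was -0.12. 5 of 6 members were called, as were 71.9% of 18598 genes. Hc was higher in liver (839 ± 168 against 0.226 ± 0.153 CPM, SD, 10 libraries each), with a log2 difference of 11.88 (SE 0.29, adjusted p = 4.21e-20, edgeR). Glo1 was also higher in liver (972 ± 285 against 146 ± 59.7 CPM), by 2.73 (SE 0.22, adjusted p = 9.33e-11). Wdfy1 was lower in liver (19.9 ± 5.12 against 38.4 ± 9.69 CPM), with a log2 difference of -0.95 (SE 0.16, adjusted p = 1.32e-05), and its livers (10.8 to 27.7 CPM) and kidneys (28.4 to 54.5 CPM) did not overlap.

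H2-Ea was lower in liver (14.7 ± 10.6 against 25.7 ± 13.8 CPM; -0.88, SE 0.34, adjusted p = 0.0237), as was Gpnmb (0.217 ± 0.31 against 0.805 ± 0.631 CPM; -1.84, SE 0.74, adjusted p = 0.0308). Nnt was not called (0.917 ± 0.503 against 0.532 ± 0.229 CPM; 0.73, SE 0.37, adjusted p = 0.079). The call of H2-Ea was lost without vehicle replicate 3 (4 members called), and that of Gpnmb without 7c replicate 2, 7c replicate 5 or vehicle replicate 4, while Nnt was called without 7c replicate 1 (6 members called).

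Genes that act with the members were taken from lists by pathway. Against the 71.9% of all genes called between liver and kidney, all 11 of the complement C3 and terminal pathway genes were called, 10 higher in liver, among them C6 of the membrane attack complex (9.55, adjusted p = 2.15e-19, edgeR), and only C7 was lower (-1.74). Of 11 class II genes, 10 were called, 9 of them lower in liver, including H2-Eb1 (-1.60) and the invariant chain Cd74 (-1.46), while the protease Ctss was higher (1.52). In the same comparison 3 of 4 dendritic cell markers were called lower in liver (median -1.86 over the 4). All 5 macrophage markers were called, 4 of them higher (median 1.49), and 1 of 5 B cell markers was called, higher. The part of these cells in the differences was not tested.

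Of 12 mitochondrial NADPH and redox genes, 11 were called, 5 higher and 6 lower in liver, with Idh2 at -1.57 and Glud1 at 2.07. Of 8 tested genes for methylglyoxal clearance, 7 were called, 4 higher and 3 lower, with the second glyoxalase Hagh at 1.05. Of 12 macrophage and lysosome genes 10 were called, 3 higher and 7 lower, and of 8 endosome and TLR3/TLR4 adaptor genes 5 were called, 3 higher and 2 lower. No gene of these 6 pathway lists was called in either 7c comparison, in the interaction or in the number test.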

How the data were processed

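Liver and kidney mRNA of 10 replicate numbers (6 7c, 4 vehicle) was sequenced from polyA RNA with the TruSeq Stranded kit. The authors aligned reads with STAR 2.7.11b to GRCm39 and counted them per gene with featureCounts 2.0.6, per the submitters' processing notes. The deposited values are raw counts per gene. The annotation release, strand setting and treatment of multiply placed reads are not given in the sources used here.

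Symbols and positions came from GENCODE vM39 (56310 of 57010 identifiers matched), and promoters from RefSeq (GRCm38.p6; 3 of 6 members matched). Genes with at least 10 counts in 50% of a tissue's libraries were tested with edgeR 4.0.16 in R 4.3.3 (TMM, quasi-likelihood F test, Benjamini-Hochberg adjustment over all genes tested). Log2 CPM used a prior count of 2. DESeq2 1.42.0 and limma 3.58.1 (voom) served as alternatives. The edgeR fits and the ranking by SD were tested on simulated data. The number test compared libraries of one treatment and replicate number. No test shows more than the spread between these libraries.

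Besides the 6 members, named genes were the 3 most alike per member, the next tested protein-coding neighbours, genes within 1 Mb at a mean r of 0.7 or beyond, 1 partner per member, up to 3 genes per list past a threshold and other strain-variant genes, of which 1 is not reported here. Correlations without vehicle replicate 2 were added after seeing the data. Members and lists were chosen with earlier results of these data known.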

Additional observations from a re-analysis of the deposited data

Results flagged for a closer look

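2 of 28 combinations of a member (or the H2-Ea to H2-Eb1 ratio) with a tissue and treatment group held 1 library far from the others by Dixon's gap ratio, and chance alone flags about 1 group in 20. In the vehicle kidneys, Glo1 in replicate 2 stood at 327 CPM with the nearest library at 134 CPM (gap 0.959 of the range). That kidney was the outlying library of its group in 7.58% of all genes tested, so such gaps were not limited to Glo1, and their cause was not tested. The liver of the same number was also the highest of its group. In the vehicle livers, Hc in replicate 1 was lowest at 452 CPM with the nearest library at 785 CPM (0.878 of the range), and the kidney of that number, with 12 counts, did not stand apart.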

How the results depend on the processing

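Over 7 results, 99 of 112 alternative values kept the reported count of members within 1.5 times and 13 moved. The 7c comparisons and the interaction gave 0 members under every alternative run, and the comparison of liver with kidney gave 4 to 6 as single replicate numbers were left out and 5 under the rest. The number test gave 0 members as reported and with RLE scaling or filterByExpr, 2 with no filter, 3 with DESeq2, 2 with limma-voom and 3 with the likelihood ratio test, and 0 to 1 as single numbers were left out (Glo1 was called without 7c replicate 5). Members in the top 5% by SD in liver numbered 0 as reported, 1 with no filter (Gpnmb) and 2 after adjustment for expression. In kidney they numbered 1 as reported, 0 with a prior count of 1, 0 with RLE scaling, 0 with no filter, 2 after adjustment, and 0 to 1 as single numbers were left out, with 0 without 7c replicate 5 or vehicle replicate 3. The cause of these moves was not tested.

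The fits with the replicate block gave 0 members in liver, 0 in kidney, 0 for the interaction and 5 for liver against kidney, so the block changed no member's call. Over all genes it called 0 in liver and 0 for the interaction, where 1 each was called without it, and 13339 against 13380 for liver against kidney. Over 14163 genes the deviations of a liver and the kidney of its number correlated above 0.1 for 3 of 10 numbers, and the own kidney correlated best for 4 of 10, while the number test called 80 single genes. Among the 3 numbers highest for Glo1, the own kidney ranked 2 of 6 for 7c replicate 1 and 1 of 6 for 7c replicate 4. For vehicle replicate 2 it ranked 4 of 4 (r = -0.095). The labels do not state what a number marks. Equal numbers of 7c and vehicle correlated at -0.067 to 0.418 within a tissue. Low counts limit Nnt in both tissues, Gpnmb in both and Hc in kidney.

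Over all genes, the number test called 80 genes as reported, 260 with no filter, 429 with DESeq2, 170 with limma-voom, 458 with the likelihood ratio test and 46 to 87 as single numbers were left out. For 7c against vehicle, liver gave 1 gene as reported and 0 to 7 over the alternatives, kidney 0 and 0 to 18, and the interaction 1 and 0 to 22, the highest with DESeq2 or the likelihood ratio test.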

Other observations

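5 other genes known to vary among these founder strains were looked at beside the members. Ifi202b, an interferon-inducible DNA sensor, varied most. It had 0 counts in both the liver and the kidney of 7c replicate 2, while the other livers had 40 to 143 counts and the other kidneys 32 to 137, apart from 6 counts in the kidney of vehicle replicate 1. Its SD of log2 CPM was 1.82 in liver and 1.89 in kidney, at percentiles 99.4 and 99.6 of all genes tested, and its adjusted p in the number test was 0.0547 (edgeR). Ifi202b belongs to a family with near-identical copies, so its reads are uncertain.

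Alad, the second enzyme of heme synthesis, ranged from 178 to 361 CPM in liver and from 127 to 319 CPM in kidney. 7c replicate 4 was the highest of its group in both tissues (341.5 and 318.9 CPM), whereas vehicle replicate 2 was the lowest liver (177.7 CPM) and the highest vehicle kidney (294.3 CPM), and the number test gave no call (adjusted p = 0.98). Prkdc ranged 1.8-fold in liver and 1.39-fold in kidney, Ahr 1.79-fold and 1.89-fold, and Tlr4 5.83-fold and 2.55-fold on 12 to 80 counts. None of the 5 genes was called for 7c against vehicle in either tissue (edgeR; 0 with an unadjusted p under 0.05).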
